A study of Mus musculus with 121 samples.

Results

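Neurons that use gamma-aminobutyric acid (GABA), the main inhibitory transmitter of the adult brain, rely on a set of genes that make it, load it into vesicles, take it up again, sense it and keep the chloride gradient on which its fast receptors depend. Described here are 27 such genes, the members, chosen by a list of their symbols out of the 24412 genes of a count table, and all 27 were found. They were followed over 3 brain regions, 2 mouse models and 3 genotypes. RNA came from the prefrontal cortex (PFC), striatum (STR) and substantia nigra (SN) of male mice, dissected from brain slices of 2 mm, in 121 libraries, 1 for each mouse and region. All mice are of a mixed 129Ola/ICR/C57bl6 background and of a line with a conditional Gdnf allele, GDNF cKU in the labels, at which Cre inverts a cassette so that the transcript gets a shorter 3' end. The aim is more Gdnf in the cells that express it natively. Total counts per library ran from 9869584 to 26750905 (median 17885830).

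The groups are wild type (WT, wt/wt), heterozygous (HET, wt/cKU) and homozygous (HOM, cKU/cKU) mice. In the Nestin-Cre model (21 mice, untreated, 2 months old) Cre is driven by the Nestin promoter, which is active in neural progenitors of the whole central nervous system from mid-gestation. In the AAV-Cre model (22 mice) a virus carrying Cre was injected into the striatum on both sides at 3 to 5 months. Tissue was taken at 5 to 7 months, so that PFC and SN of these mice lie outside the injected region. WT littermates carry Nestin-Cre or received AAV-Cre as well, so no group is without Cre. The models differ in age, Cre source and injection together, and these cannot be told apart. Group sizes for WT, HET and HOM were 8, 6 and 4 in PFC, 6, 7 and 6 in STR and 6, 7 and 6 in SN of Nestin-Cre mice, and 7, 7 and 8 in PFC, 7, 7 and 7 in STR and 7, 7 and 8 in SN of AAV-Cre mice. The labels of mouse M4575 conflict, with WT for its PFC library but HOM for those of STR and SN. They were used as given.

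GABA is made from glutamate by decarboxylases, packed into vesicles by a transporter and, after release, taken up and broken down. It acts on GABA-A receptors, chloride channels of several subunits whose make-up sets where they sit and how long a current lasts, and on GABA-B receptors, which signal through G proteins. Most striatal neurons and the neurons of the nigral pars reticulata release GABA, whereas in the cortex it comes from interneurons.

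Tissue labels were checked first, with summed levels of marker genes in counts per 1e+06 counts of the library, after scaling of library totals (cpm). The 8 cortical excitatory markers, all detected at a mean of at least 1 cpm and led by Slc17a7, summed to 2063 to 2458 cpm (median 2287) in Nestin-Cre and 1766 to 2206 cpm (median 1907) in AAV-Cre PFC of WT mice. For the 10 striatal projection neuron markers, all detected, the sum in STR was 11190 to 14130 cpm (median 12130) in Nestin-Cre WT mice, led by Penk, and 7938 to 10860 cpm (median 9499) in AAV-Cre WT mice, led by Ppp1r1b. The 8 nigral dopamine neuron markers, all detected and led by Slc6a3, reached 3231 to 4469 cpm (median 3538) in Nestin-Cre and 2325 to 4823 cpm (median 3376) in AAV-Cre SN. Each of these lists is higher in every library of the region it marks than in any library of the other regions. Within a library the list of its own region is not always the highest: in 2 of 7 AAV-Cre PFC WT libraries the striatal sum (2026 and 1769 cpm) exceeds the cortical sum (1959 and 1766).

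Markers of other cell types are given as the lowest and highest of the 6 WT group medians of each list's summed level. GABA interneuron markers had medians of 395 to 689.8 cpm (8 of 8 detected), midbrain and thalamic GABA neuron markers 8.47 to 82.7 cpm (3 to 6 of 6 detected) and thalamic neuron markers 79.8 to 381 cpm (4 to 6 of 6 detected). The highest median of the midbrain and thalamic GABA list is that of AAV-Cre STR, not of SN, so the list does not mark SN here. It also shares Otx2 with the choroid plexus list. Cerebellar granule cell markers stood at 24.2 to 107 cpm (3 to 7 of 7 detected), serotonin, noradrenaline and hypothalamic markers at 2.47 to 106 cpm (0 to 4 of 11 detected) and olfactory bulb markers at 10.3 to 113 cpm (3 to 6 of 6 detected). Among glia, astrocyte markers had medians of 3837 to 5306 cpm (7 of 7 detected), oligodendrocyte markers 4806 to 27180 cpm (8 of 8 detected), their precursors 187 to 292 cpm (5 of 5 detected) and microglia 291 to 384 cpm (6 of 6 detected). Endothelial and mural markers stood at 153 to 286 cpm (7 of 7 detected), immediate-early genes at 91.9 to 556 cpm (8 to 9 of 9 detected), choroid plexus markers at 9.39 to 240.4 cpm (4 to 6 of 6 detected) and meningeal markers at 56.2 to 259 cpm (8 to 9 of 9 detected). None of the 27 members is in a marker list.

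Several libraries stand apart by markers of a neighbouring tissue. Choroid plexus markers, led by Ttr, reached 1000 cpm or more in 9 libraries: 19050 cpm in 1 Nestin-Cre STR HET library (the others of the group at most 186), 20300 in 1 AAV-Cre SN HET library, 1278 in 1 AAV-Cre PFC HET library, and 4911 to 8054 in 2 libraries of each genotype in AAV-Cre STR. Meningeal markers, led by Igf2, reached 1030 to 1269 cpm in 4 Nestin-Cre SN libraries, of which 2 are WT, 1 HET and 1 HOM. Striatal markers reached 1060 cpm in 1 AAV-Cre SN WT library (the others of the group 339 to 467) and 1851 in 1 Nestin-Cre SN HET library (the others 338 to 407). Calls in genotype and region comparisons that change without these libraries are given below. The limit of 1000 cpm for striatal markers was applied to SN alone. In PFC their sum was 849 to 2026 cpm (median 1075) in WT of AAV-Cre mice, with 5 of 7 libraries over 1000, and had medians of 834, 545 and 562 cpm in WT, HET and HOM of Nestin-Cre mice. Their part in the differences that involve PFC was not tested. In bulk tissue fewer cells of a type and less RNA per cell cannot be told apart.

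Gdnf itself, the gene the allele alters, was also measured. After Cre its transcript has a shorter 3' end, so counts over exons can miss reads of that end in mutants. These levels can therefore neither check the genotype labels nor give the size of a rise in Gdnf. In STR Gdnf ran from 3.96 to 7.7 (median 6.26) cpm in WT Nestin-Cre mice. HET libraries there had 4.03 to 9.39 (median 5.57) cpm and HOM libraries 5.64 to 9.81 (median 6.84), with log2 fold changes against WT of 0.07 (SE 0.19, adjusted p = 0.85) and 0.28 (SE 0.19, adjusted p = 0.784), and the groups overlap. In STR of AAV-Cre mice the values were 5.34 to 7.5 (median 6.78) cpm in WT and, for HET and HOM, 6.36 to 9.58 (median 7.52) and 7.62 to 9.96 (median 8.61). All 7 HOM libraries there lie above the WT range, while the log2 fold change of 0.40 (SE 0.09, adjusted p = 0.504) did not pass the test described below, and that of HET was 0.20 (SE 0.09, adjusted p = 1). In PFC Gdnf stood at 0.216 to 0.953 cpm in WT, 0.134 to 0.929 in HET and 0.0929 to 0.646 in HOM Nestin-Cre mice, and at 0.307 to 1.19, 0.319 to 1.69 and 0.366 to 1.57 in AAV-Cre mice, with overlapping groups. Its levels in SN were 0.275 to 0.51, 0.28 to 1.58 and 0.352 to 0.865 cpm in Nestin-Cre and 0.0975 to 1.03, 0.235 to 0.86 and 0.173 to 0.846 cpm in AAV-Cre WT, HET and HOM mice.

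Levels of different genes are compared per kilobase of exon (cpm per kb), as means over WT libraries. Gabarapl1, whose product helps carry receptors to the membrane, ranks 1 of 27 in all 6 groups, from 307 cpm per kb in Nestin-Cre SN to 436 in Nestin-Cre STR. Gad1, a GABA-making decarboxylase, had a level of 139, 219 and 135 cpm per kb in PFC, STR and SN of Nestin-Cre mice. It compares with 41.4, 87.3 and 53 for the other decarboxylase, Gad2, and Gad1 is also the higher in all 3 regions of AAV-Cre mice. Among the 5 alpha subunits the highest level per length was that of Gabra3 in PFC (61.7 and 47.4 cpm per kb in the 2 models) and SN (31.2 and 30.3), and that of Gabra4 in STR (78.3 and 49.8). The delta subunit gene Gabrd ranks 6 in Nestin-Cre STR with 112 cpm per kb and 23 in Nestin-Cre SN with 1.75. At the low end stand Gabra6 and Gabre, which take the 2 last ranks in all 6 groups, at most 0.658 and 0.879 cpm per kb. Gabre rests on few counts: at most 10 in any PFC library of a WT mouse and 18 in any Nestin-Cre STR library of a WT mouse.

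Which members differ between regions was asked within the WT mice of each model. Differences are log2 fold changes, so that 1 is a doubling, tested for all genes that reach 1 cpm in 3 or more libraries (14926 for Nestin-Cre, 15043 for AAV-Cre mice) with edgeR's quasi-likelihood F test, and p-values were adjusted over all of them (Benjamini-Hochberg). A gene was called where the adjusted p was under 0.1 and the difference at least 2-fold. All 27 members were tested in Nestin-Cre mice and 26, all but Gabra6, in AAV-Cre mice. Of the 27 members 18 (66.7%) were called in at least 1 of the 6 comparisons, as were 38.9% of the 15190 genes tested in either model, and 9 never were: Gad1, Abat, Gabra2, Gabrb1, Gabrb2, Gabbr1, Gphn, Gabarap and Gabarapl1. At the adjusted p alone, with no minimum fold, 88.9, 85.2 and 88.9% of the members passed for STR minus PFC, SN minus PFC and SN minus STR in Nestin-Cre mice, beside 68.1, 78.8 and 76.2% of all genes. In AAV-Cre mice the shares were 69.2, 84.6 and 96.2% of the members, beside 65.6, 74.1 and 75.6% of all genes.

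Counts of members stand beside the share of all tested genes called in the same direction. In Nestin-Cre mice 7 members were higher and 3 lower in STR than in PFC (25.9 and 11.1% of the members, 5.92 and 9.82% of all genes). From PFC to SN 4 were higher and 9 lower (14.8 and 33.3%, against 11 and 13.2% of genes), and from STR to SN 5 were higher and 6 lower (18.5 and 22.2%, against 13.7 and 11.6%). In AAV-Cre mice the counts were 4 higher and 4 lower in STR than in PFC (15.4 and 15.4%, against 5.78 and 6.66% of genes), 3 and 3 for SN against PFC (11.5 and 11.5%, against 7.86 and 8.83%) and 5 and 4 for SN against STR (19.2 and 15.4%, against 9.17 and 9%). Median log2 differences of the members were 0.15, -0.37 and -0.52 in Nestin-Cre mice for STR minus PFC, SN minus PFC and SN minus STR, where the median over all genes was 0, -0.03 and 0.01. The same medians in AAV-Cre mice were 0.22, -0.15 and -0.11 for members and 0.02, 0.01 and 0.03 for all genes. The 3 comparisons of a model share libraries, but the models share no mice: of the members called for STR minus PFC, 7 of 10 in Nestin-Cre and 7 of 8 in AAV-Cre mice are the same with the same direction, beside 62.2 and 78% of all genes called. For SN minus PFC these are 6 of 13 and 6 of 6, beside 56.7 and 81.6%, and for SN minus STR 8 of 11 and 8 of 9, beside 60.2 and 83%. No member was called in opposite directions, and 5, 0 and 10 genes were.

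**Figure D1:**
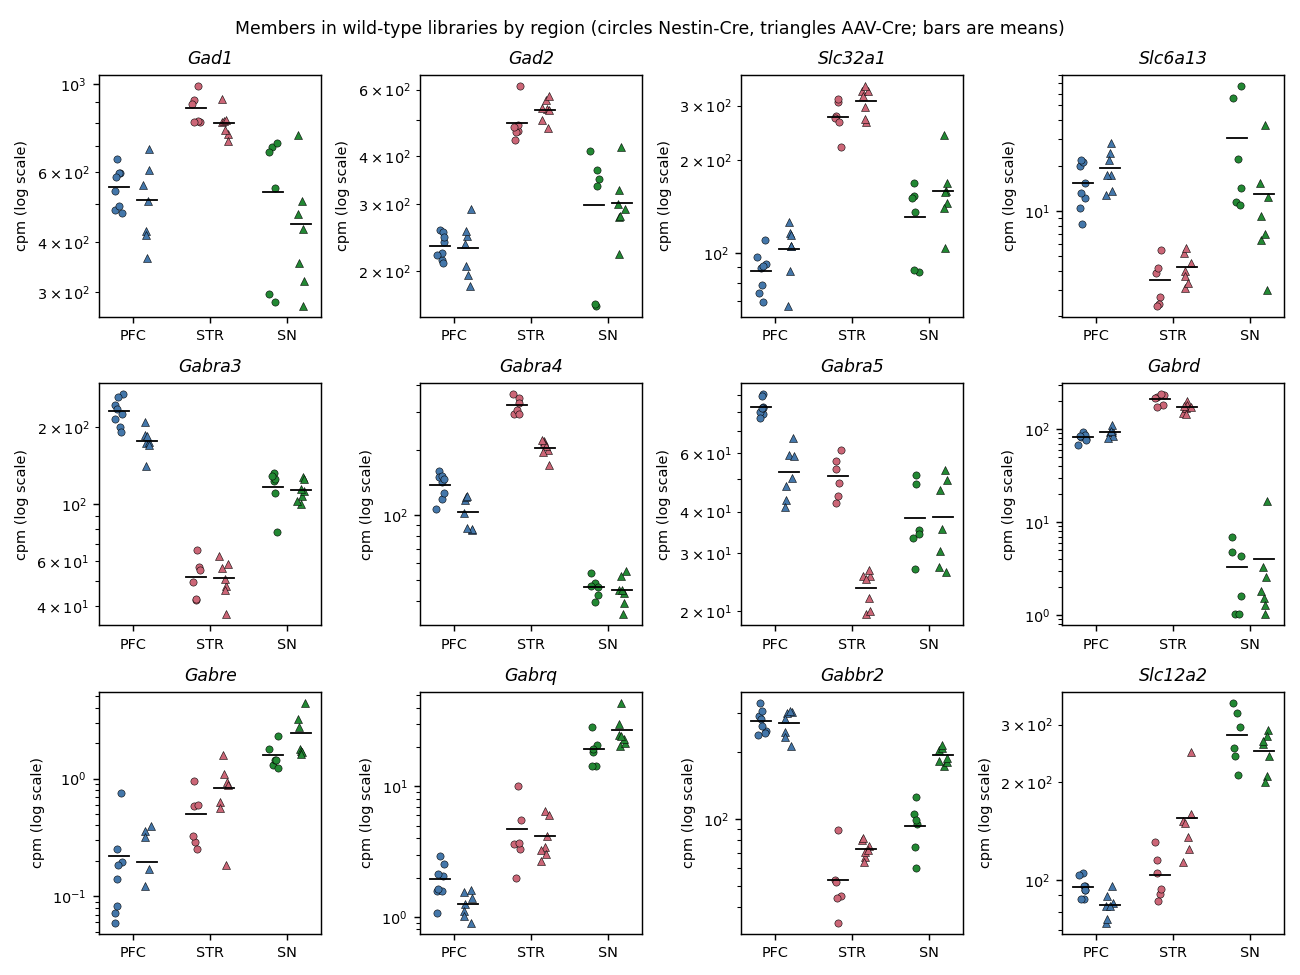
Level in cpm (log scale) of 12 members in every WT library by region, with circles for Nestin-Cre, triangles for AAV-Cre mice and bars for group means; values of 0 (2 Gabre libraries of AAV-Cre PFC) are not drawn. Gabrd and Gabra4 are highest in STR and lowest in SN, Gabre and Gabrq rise from PFC over STR to SN, and Gabbr2 and Gabra3 are lowest in STR.

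Of the genes that make and load GABA, Gad2 and Slc32a1 were called higher in STR than in PFC of both models. Gad2, the decarboxylase tied to synaptic vesicles, ran from 209.5 to 257 (median 231) cpm in PFC, 441 to 615 (median 472) in STR and 162 to 414 (median 341) in SN of Nestin-Cre mice, with a log2 difference of 1.07 (SE 0.16, adjusted p = 6.76e-06) for STR minus PFC. In AAV-Cre mice its values were 182 to 291 (median 235), 474 to 577 (median 532) and 221 to 422 (median 290.4) cpm and the difference 1.20 (SE 0.11, adjusted p = 2.87e-09). STR and PFC do not overlap in either model, and for SN minus STR Gad2 was not called, at -0.74 and -0.81 in the 2 models. Slc32a1, which loads GABA into vesicles, had 69.4 to 109.9 (median 90.1) cpm in PFC, 220.1 to 314 (median 275) in STR and 86.8 to 168 (median 144) in SN of Nestin-Cre mice, a log2 difference of 1.65 (SE 0.14, adjusted p = 1.06e-09) for STR minus PFC without overlap. Its AAV-Cre values were 67.7 to 126 (median 106), 265 to 348 (median 322) and 104 to 240.1 (median 158) cpm, with 1.58 (SE 0.14, adjusted p = 2.16e-09). Gad1, the other decarboxylase, was not called in any comparison, with medians of 561, 849 and 612 cpm in Nestin-Cre and 509.6, 803 and 433 cpm in AAV-Cre PFC, STR and SN. The spread of Gad1 in Nestin-Cre SN is wide, and the 2 WT libraries high in meningeal markers hold its lowest values, 296 and 284 cpm, where the other 4 hold 548 to 713. Abat, which breaks GABA down, was not called either, with log2 differences of 0.95 and 0.80 for STR minus PFC and 0.94 and 0.94 for SN minus PFC in the 2 models. Without the SN libraries high in meningeal markers it passed 2-fold for SN minus PFC of Nestin-Cre mice, at 1.09. Slc32a1 was also called for SN minus STR of Nestin-Cre mice, at -1.10, which was -0.88 without these libraries. In AAV-Cre mice it was not called there, at -0.96, and passed 2-fold without the libraries high in choroid plexus markers, at -1.02.

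Slc6a13 encodes a GABA and taurine transporter of the plasma membrane that is known from the meninges and other borders of the brain. It stood at 8.2 to 21.7 (median 14.3) cpm in PFC, 2.36 to 5.47 (median 3.28) in STR and 10.9 to 67.8 (median 18.1) in SN of Nestin-Cre mice. STR lies below PFC with no overlap, with a log2 difference of -2.13 (SE 0.42, adjusted p = 0.000147), and SN lies above STR, 3.11 (SE 0.44, adjusted p = 1.79e-06). In AAV-Cre mice the values were 12.7 to 28.1 (median 17.3), 3.07 to 5.7 (median 4.02) and 2.97 to 36.9 (median 9.21) cpm, with -2.20 (SE 0.38, adjusted p = 3.32e-05) for STR minus PFC and 1.62 (SE 0.38, adjusted p = 0.000618) for SN minus STR, where the groups overlap. The 2 Nestin-Cre SN WT libraries high in meningeal markers hold its 2 highest WT values, 67.8 and 56.2 cpm, and the other 4 hold 10.9 to 22.0. Without the SN libraries high in these markers the difference of SN minus PFC in Nestin-Cre mice was -0.08 in place of 0.98, and that of SN minus STR was 2.05. With them SN minus PFC lies just under 2-fold, and it was called higher with DESeq2 (1.02), with its size factors in edgeR (1.03) and without mouse M4575 (1.04). In the paired fit with mouse as a replicate block it was 0.58 (adjusted p = 0.23), against an adjusted p of 0.0191 without the block. The summed meningeal level in WT mice was 93.2 to 247 cpm (median 197) in Nestin-Cre PFC, 44.9 to 134 cpm (median 75.8) in STR and 164 to 1269 cpm (median 259) in SN, with 8 or 9 of its 9 genes detected, and its part in the differences between regions was not tested further. In AAV-Cre WT mice it was, with 9 of 9 detected and led by Igf2, 129.5 to 191 cpm (median 149) in PFC, 49.9 to 411 cpm (median 56.2) in STR and 68.6 to 461 cpm (median 167) in SN. The AAV-Cre SN WT library with the highest sum, 461 cpm, holds the highest Slc6a13 of its group, 36.9 cpm, and that with the lowest sum, 68.6 cpm, holds the lowest, 2.97 cpm. The part of the markers in the AAV-Cre difference of SN minus STR was not tested.

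Alpha subunits set much of the pharmacology and placement of GABA-A receptors, and 4 of the 5 among the members were called in at least 1 region comparison. Gabra4, a subunit often paired with delta outside synapses, ran from 107 to 159 (median 145) cpm in PFC, 293 to 364 (median 319) in STR and 39.6 to 53.9 (median 46.8) in SN of Nestin-Cre mice, and no region overlaps another. Its log2 difference was -2.82 (SE 0.10, adjusted p = 3.27e-16) for SN minus STR and 1.22 (SE 0.08, adjusted p = 5.17e-11) for STR minus PFC. The order is the same in AAV-Cre mice, at 85.7 to 123 (median 102), 171 to 222 (median 210.3) and 34.8 to 55.3 (median 44.8) cpm, with -2.18 (SE 0.10, adjusted p = 1.96e-14) for SN minus STR, -1.19 (SE 0.10, adjusted p = 4.79e-10) for SN minus PFC and 0.99, just under 2-fold, for STR minus PFC. Gabra3, known from monoamine neurons and developing cortex, shows another order. It had 192 to 268 (median 230.1) cpm in PFC, 42.2 to 66.3 (median 52.4) in STR and 77.8 to 132 (median 124) in SN of Nestin-Cre mice, a log2 difference of -2.15 (SE 0.12, adjusted p = 2.22e-12) for STR minus PFC. In AAV-Cre mice it had 140.5 to 209 (median 175), 37.1 to 62.8 (median 50.8) and 100.1 to 128 (median 113) cpm, a difference of -1.79 (SE 0.10, adjusted p = 3.92e-13). In both models STR is lowest and overlaps neither PFC nor SN. For SN minus PFC in Nestin-Cre mice, Gabra3 was called at -1.01 and was -0.96, under 2-fold, in the paired fit that takes mouse as a replicate block, and also with DESeq2 and with its size factors in edgeR. With all genotypes of the model in the fit it was -0.99. Without the SN libraries high in meningeal markers it was -0.88. Gabra5, an extrasynaptic subunit best known from the hippocampus, was called lower in SN than in PFC of Nestin-Cre mice (-1.13, SE 0.12, adjusted p = 1.79e-08) and lower in STR than in PFC of AAV-Cre mice (-1.17, SE 0.15, adjusted p = 6.11e-07). Gabra2, a synaptic subunit, stayed between -0.81 and 0.12 in all 6 comparisons. Gabra6, which is typical of cerebellar granule cells, had medians of 0 to 0.345 cpm in the 6 WT groups, and its call for STR minus PFC in Nestin-Cre mice (3.39, SE 1.16, adjusted p = 0.0148) goes with 1 library at 8.08 cpm where the others of the group had 0 to 1.39. The same library holds the highest sum of cerebellar granule cell markers in its group, 64.8 cpm of a range of 16.2 to 64.8 cpm (median 24.2), with 6 of 7 detected and led by Zic1. Their part was not tested. Without the SN libraries high in meningeal markers Gabra6 was below the minimum count of the Nestin-Cre fit. In the paired fit with the replicate block Gabra6 was also called for SN minus PFC of Nestin-Cre mice, at 2.79 (adjusted p = 0.026). The likelihood ratio test of edgeR called it there at 1.83 (adjusted p = 4.2e-05). That test also called it for SN minus STR, at -1.56 (adjusted p = 2.71e-05).

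Beta and gamma subunits complete the common receptor, and 2 of the 4 members among them were called. Gabrb2, the beta subunit of many synaptic receptors, had medians of 367, 252 and 400.3 cpm in Nestin-Cre and 249, 234 and 359 cpm in AAV-Cre PFC, STR and SN, with log2 differences of -0.51 to 0.66. For Gabrb1 the range was -0.45 to 0.44. Gabrg1, a gamma subunit also found in glia, was called higher in SN than in PFC of Nestin-Cre mice, where it ran from 25.7 to 38.3 (median 28.2) cpm in PFC to 58.6 to 84.5 (median 67.9) in SN without overlap (1.24, SE 0.15, adjusted p = 1.2e-07), and had 0.85 in AAV-Cre mice. Gabrg3, a scarce gamma subunit, was lowest in SN: 0.972 to 2.1 (median 1.18) cpm against 3.11 to 8.94 (median 4.56) in STR of Nestin-Cre mice (-1.97, SE 0.26, adjusted p = 5.47e-07), and 2.7 to 5.02 (median 3.83) against 6.79 to 12.1 (median 9.45) in AAV-Cre mice (-1.30, SE 0.14, adjusted p = 3.08e-08). The ranges of STR and SN are apart in both models. In PFC it had 3.66 to 6.84 (median 4.97) and 3.85 to 6.52 (median 5.34) cpm in the 2 models, and SN minus PFC was -1.87 (SE 0.25, adjusted p = 5.7e-07) in Nestin-Cre and -0.51, under 2-fold, in AAV-Cre mice.

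The largest regional differences of all members are those of the delta subunit gene Gabrd, which serves tonic inhibition by receptors outside synapses. It ran from 67.9 to 92.7 (median 83.4) cpm in PFC, 175 to 239 (median 219) in STR and 1.02 to 6.94 (median 2.95) in SN of Nestin-Cre mice, and 79.9 to 111 (median 93.7), 146 to 203 (median 175) and 1.02 to 16.7 (median 1.82) cpm in AAV-Cre mice. No region overlaps another in either model. The log2 difference of SN minus STR was -6.00 (SE 0.29, adjusted p = 8.45e-14) and -5.37 (SE 0.39, adjusted p = 3.39e-11), or 63.8-fold and 41.3-fold, and that of SN minus PFC -4.64 (SE 0.28, adjusted p = 2.56e-12) and -4.50 (SE 0.39, adjusted p = 5.73e-10). STR lies above PFC by 1.36 (SE 0.21, adjusted p = 7.7e-06) in Nestin-Cre mice, and by 0.87, under 2-fold, in AAV-Cre mice. The 1 AAV-Cre SN WT library high in striatal markers holds the highest Gabrd of its group, 16.7 cpm, where the other 6 hold 1.02 to 3.25. Without it the AAV-Cre log2 differences were larger, -6.47 for SN minus STR and -5.60 for SN minus PFC. DESeq2 gave Gabrd no adjusted p in the AAV-Cre region comparisons.

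Gabre and Gabrq, the epsilon and theta subunit genes, are known from hypothalamus and brainstem and take the opposite order, lowest in PFC and highest in SN. Summed serotonin, noradrenaline and hypothalamic markers of WT mice had the same order. They ran from 2.00 to 3.36 cpm in PFC, 4.82 to 9.53 in STR and 24.4 to 127.5 in SN of Nestin-Cre mice. In AAV-Cre mice the ranges were 2.38 to 4.38, 7.46 to 18.6 and 20.4 to 104 cpm. Their part was not tested. Gabrq had 1.07 to 2.92 (median 1.85) cpm in PFC, 1.97 to 10 (median 3.65) in STR and 14.3 to 28.5 (median 18.9) in SN of Nestin-Cre mice, with 3.30 (SE 0.28, adjusted p = 6.12e-10) for SN minus PFC and 2.02 (SE 0.29, adjusted p = 1.73e-06) for SN minus STR. In AAV-Cre mice it had 0.9 to 1.61 (median 1.26), 2.7 to 6.54 (median 3.43) and 20.3 to 44 (median 24.4) cpm, with 4.44 (SE 0.23, adjusted p = 1.09e-13) and 2.71 (SE 0.20, adjusted p = 2.69e-11). SN stands clear of both other regions in both models, and STR overlaps PFC in Nestin-Cre but not in AAV-Cre mice. Gabre is much scarcer, at 0.0596 to 0.763 (median 0.163) cpm in PFC, 0.255 to 0.964 (median 0.457) in STR and 1.22 to 2.32 (median 1.45) in SN of Nestin-Cre mice, with 2.90 (SE 0.40, adjusted p = 1.03e-06) for SN minus PFC and 1.60 (SE 0.39, adjusted p = 0.000839) for SN minus STR. Its AAV-Cre values of 0 to 0.392 (median 0.169), 0.184 to 1.6 (median 0.886) and 1.63 to 4.43 (median 1.77) cpm gave 3.49 (SE 0.46, adjusted p = 4.71e-07) and 1.58 (SE 0.36, adjusted p = 0.000532). Both genes were also called higher in STR than in PFC, by 1.30 and 1.91 (SE 0.51, adjusted p = 0.0024) for Gabre and 1.28 and 1.73 (SE 0.25, adjusted p = 2.71e-06) for Gabrq in the 2 models. The WT library of mouse M4575, whose labels conflict, holds the highest Gabre of Nestin-Cre PFC, 0.763 cpm. The other WT libraries there hold 0.0596 to 0.254. In the paired fit with mouse as a replicate block, Nestin-Cre Gabre was 3.45 for SN minus PFC and 1.95 for STR minus PFC.

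GABA-B receptors are pairs of Gabbr1 and Gabbr2 products with KCTD proteins as partners that shape the response. Gabbr2 was far lower in STR than in PFC: 238 to 334 (median 273) cpm in PFC, 34 to 88.9 (median 48.4) in STR and 60 to 125 (median 96.6) in SN of Nestin-Cre mice, with a log2 difference of -2.39 (SE 0.18, adjusted p = 3.03e-10) for STR minus PFC. In AAV-Cre mice the values were 214 to 308 (median 281), 63.9 to 82.2 (median 72.2) and 174 to 214 (median 189) cpm and the difference -1.89 (SE 0.08, adjusted p = 8.56e-15). Its partner Gabbr1 stayed under 2-fold, with medians of 799.7, 903 and 536 cpm in Nestin-Cre and 775, 801 and 741 cpm in AAV-Cre PFC, STR and SN. Per length, the mean of Gabbr1 in STR was 198 and 178 cpm per kb and that of Gabbr2 13.2 and 18.3 in the 2 models. Kctd16, a partner of GABA-B receptors, was lowest in SN, at 9.92 to 16.6 (median 12) cpm in PFC, 4.42 to 14.6 (median 6.07) in STR and 0.758 to 1.92 (median 1.24) in SN of Nestin-Cre mice. SN overlaps neither other region there, with -3.25 (SE 0.28, adjusted p = 7.78e-10) for SN minus PFC and -2.53 (SE 0.29, adjusted p = 7.07e-08) for SN minus STR. For AAV-Cre mice Kctd16 had 8.36 to 16.6 (median 13.4), 10.4 to 16.9 (median 13.4) and 2.01 to 6.77 (median 4.3) cpm, with -1.61 (SE 0.19, adjusted p = 8.97e-08) and -1.60 (SE 0.19, adjusted p = 8.13e-08). Kctd12, another such partner, was called for SN minus STR of Nestin-Cre mice (-1.22, SE 0.12, adjusted p = 1.22e-08), and had -0.89 in AAV-Cre mice, or -1.01 and past 2-fold without the libraries high in choroid plexus markers.

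Chloride transporters set the direction of the GABA-A current: Slc12a2 brings chloride in, also in choroid plexus and glia, and Slc12a5 takes it out of mature neurons. Slc12a2 had 87.1 to 105 (median 94.5) cpm in PFC, 86.3 to 131 (median 99.5) in STR and 210.0 to 351 (median 275) in SN of Nestin-Cre mice, with a log2 difference of 1.53 (SE 0.10, adjusted p = 1.62e-11) for SN minus PFC. The AAV-Cre values were 73.9 to 95.7 (median 83.2), 113 to 248 (median 149.7) and 200.1 to 288 (median 262) cpm, with 1.57 (SE 0.13, adjusted p = 3.14e-10). SN lies above PFC without overlap in both models, and beside it the summed oligodendrocyte markers, all 8 detected and led by Mbp, had medians of 5225 cpm in PFC and 27180 in SN of Nestin-Cre and 4806 and 16920 cpm in AAV-Cre mice; their part was not tested. In AAV-Cre STR the WT library with most choroid plexus markers (8054 cpm) holds the highest Slc12a2, 248 cpm. Slc12a5 was called lower in SN than in PFC of Nestin-Cre mice (-1.05, SE 0.10, adjusted p = 2.11e-09), with 639 to 864 (median 751) cpm in PFC and 311 to 446 (median 366) in SN. It had -0.15 in AAV-Cre mice, and in Nestin-Cre mice it fell just below 2-fold without the SN libraries high in meningeal markers. Among mutant Nestin-Cre SN libraries, those of M4577, M4606 and M4628 (HET) and M4580 and M4627 (HOM) hold 504 to 657 cpm of Slc12a5. The other mutant libraries there hold 329 to 469.9, and AAV-Cre SN of WT mice holds 605.5 to 833 cpm. What sets these libraries apart was not tested.

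Of the 4 scaffold, adhesion and trafficking genes 1 was called. Nlgn2, an adhesion protein of inhibitory synapses, was called lower in SN than in PFC of Nestin-Cre mice, at 113 to 150.0 (median 122) cpm in SN against 277 to 328 (median 301) in PFC (-1.26, SE 0.09, adjusted p = 5.91e-11), and had -0.50 in AAV-Cre mice. Mutant Nestin-Cre SN libraries fall into 2 levels. Those of M4577, M4606 and M4628 (HET) and M4580 and M4627 (HOM) hold 221 to 236 cpm, and the others 105 to 159. AAV-Cre SN of WT mice holds 185 to 246 cpm. What sets these libraries apart was not tested. Gphn, the gephyrin scaffold that anchors receptors, ranged over the 6 comparisons from -0.45 to 0.38. For Gabarap, which binds the gamma subunit and helps move receptors, the range was -0.07 to 0.58, and for Gabarapl1 -0.52 to 0.15.

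The other genes of the pathway, a list of 51 of which 48 were tested in each model, gave these counts of called genes. In Nestin-Cre mice 2 were higher and 5 lower for STR minus PFC (4.17 and 10.4% of the list, 5.92 and 9.82% of all genes). For SN minus PFC the counts were 9 and 8 (18.8 and 16.7%, against 11 and 13.2%), and for SN minus STR 11 and 8 (22.9 and 16.7%, against 13.7 and 11.6%). AAV-Cre mice gave 2 and 2 (4.17 and 4.17%, against 5.78 and 6.66%), 7 and 3 (14.6 and 6.25%, against 7.86 and 8.83%), and 7 and 6 (14.6 and 12.5%, against 9.17 and 9%) in the same order. None of these 51 genes is in a marker list either.

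Most GABA-A subunit genes sit in clusters, and members of 1 cluster can differ in their order of regions. On chr5 (mm10) Gabrg1, Gabra2, Gabra4 and Gabrb1 lie in a row, from position 70751047, the first base of Gabrg1, to 72137244, the last of Gabrb1. Of these, Gabra4 is highest in STR and lowest in SN, whereas Gabrg1 is highest in SN, and Gabra2 and Gabrb1 were not called. Gabre, Gabra3 and Gabrq lie on chrX at chrX:72257432-72274721, chrX:72432676-72656246 and chrX:72825178-72842602. Gabra3 lies between the other genes of this cluster and is highest in PFC, while Gabre and Gabrq on either side are highest in SN. Gabrb2 and Gabra6 lie on chr11, Gabra5 and Gabrg3 on chr7, and Gabrd lies apart from these clusters on chr4.

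Promoter windows of 300 bases, 250 before and 50 after the annotated start, come from RefSeq (GRCm38.p6). Of the 27 members 23 matched, with 30 windows in all, and Abat, Gabrd, Kctd16 and Slc12a2 had no entry. Shown are 2 neighbours on opposite strands of the chr5 cluster, Gabra4 (chr5:71658259-71658558, minus strand) and Gabrb1 (chr5:71657671-71657970, plus strand), whose starts lie 387 bases apart, each downstream of the other, while Gabra4 was called between STR and SN in both models and Gabrb1 in none, and the pair with the same order of regions, Gabre (chrX:72274672-72274971, minus strand) and Gabrq (chrX:72824928-72825227, plus strand), whose starts lie 550457 bases apart. Capitals mark matches to any of 4 motifs: the TATA box TATAAA or TTTATA, the CCAAT box CCAAT or ATTGG, the GC box GGGCGG or CCGCCC, and the cAMP response element TGACGTCA, which reads the same on both strands.
Gabra4: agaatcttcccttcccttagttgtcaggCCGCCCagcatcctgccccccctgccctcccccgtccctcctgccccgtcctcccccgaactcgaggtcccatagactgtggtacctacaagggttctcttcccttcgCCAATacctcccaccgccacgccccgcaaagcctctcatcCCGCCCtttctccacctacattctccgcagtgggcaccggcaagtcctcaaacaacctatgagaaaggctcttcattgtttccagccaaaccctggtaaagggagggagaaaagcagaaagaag
Gabrb1: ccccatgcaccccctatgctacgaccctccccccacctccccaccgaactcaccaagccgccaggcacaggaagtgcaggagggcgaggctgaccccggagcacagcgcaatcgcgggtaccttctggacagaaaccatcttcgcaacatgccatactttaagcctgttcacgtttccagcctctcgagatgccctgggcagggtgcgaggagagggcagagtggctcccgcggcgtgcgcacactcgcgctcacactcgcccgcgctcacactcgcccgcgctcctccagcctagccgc
Gabre: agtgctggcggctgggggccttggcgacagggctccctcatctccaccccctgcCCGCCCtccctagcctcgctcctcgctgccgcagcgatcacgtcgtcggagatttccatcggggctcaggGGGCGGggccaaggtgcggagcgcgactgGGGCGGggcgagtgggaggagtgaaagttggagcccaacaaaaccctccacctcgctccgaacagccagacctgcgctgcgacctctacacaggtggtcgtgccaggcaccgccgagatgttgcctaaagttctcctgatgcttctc
Gabrq: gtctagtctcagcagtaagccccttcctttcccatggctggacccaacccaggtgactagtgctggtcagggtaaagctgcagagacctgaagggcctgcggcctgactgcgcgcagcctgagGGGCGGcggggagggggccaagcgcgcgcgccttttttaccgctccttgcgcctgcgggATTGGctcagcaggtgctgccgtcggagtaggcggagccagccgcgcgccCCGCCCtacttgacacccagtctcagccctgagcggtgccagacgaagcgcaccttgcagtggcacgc

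The Gabra4 window holds 1 CCAAT and 2 GC box matches, that of Gabrq also 1 and 2, that of Gabre 3 GC box matches, and that of Gabrb1 none of the 4 motifs. Counted exons of Gabrb1 begin at position 71700016, and RefSeq gives a further start of Gabrb1 at 71699932. Over all 32851 windows of this length in the table, the TATA box letters are found in 13.6%, CCAAT in 37.4%, the GC box in 35.7% and the cAMP response element in 1.79%. In the 30 windows of members they are found in 4, 13, 16 and 0 windows. A match describes letters only, and no match says only that these letters are not in the window.

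Whether the altered Gdnf allele goes with other levels of the members was asked by comparing HET and HOM with WT in each model and region. The test was the same, with genes called at an adjusted p under 0.1 and no minimum fold, on 14386, 14494 and 14873 genes in PFC, STR and SN of Nestin-Cre mice and 14628, 14655 and 14813 in AAV-Cre mice. HET and HOM of a region are compared with the same WT libraries. In Nestin-Cre PFC 0 of 25 members tested were called in HET and 0 in HOM, where 0 and 0.25% of all genes were. STR gave 0 of 26 in both, with 0 and 0% of genes, and SN 0 of 27 in both, with 0 and 0%. In AAV-Cre mice it was 0 of 25 in PFC (0% of genes in HET and 0.0137% in HOM), 0 of 26 in STR (0 and 0%) and 0 of 26 in SN (0 and 0%). A count of 0 members is thus what nearly all genes show in these comparisons.

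Over the 12 comparisons edgeR's quasi-likelihood test called 0 of 310 member tests, with a lowest adjusted p of 0.175, and 39 had an unadjusted p under 0.05. That is 12.6% of the member tests, beside 8.3% of 175698 gene tests. The same data gave 16 calls with edgeR's likelihood ratio test (5.16% of member tests, 2.36% of gene tests) and 7 with DESeq2 (2.26 and 0.622%). Mutant and WT ranges were apart in 0 member tests and in 0.2% of the gene tests. Unadjusted p under 0.05 was found for 2 and 2 of 25 members in Nestin-Cre PFC HET and HOM (9.72 and 10.1% of genes), 9 and 2 of 26 in STR (17.3 and 4.62%) and 5 and 3 of 27 in SN (8.99 and 4.09%). In AAV-Cre mice it was 4 and 2 of 25 in PFC (12.3 and 14.2%), 0 and 2 of 26 in STR (1.71 and 4.58%) and 4 and 4 of 26 in SN (4.69 and 7.49%). Medians of the members' log2 fold changes ran from -0.06 to 0.09 over the 12 comparisons, where those of all genes were 0 or 0.01. For the other pathway genes 0 of 570 tests were called, 64 had an unadjusted p under 0.05, and the likelihood ratio test and DESeq2 called 19 and 7.

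**Figure D2:**
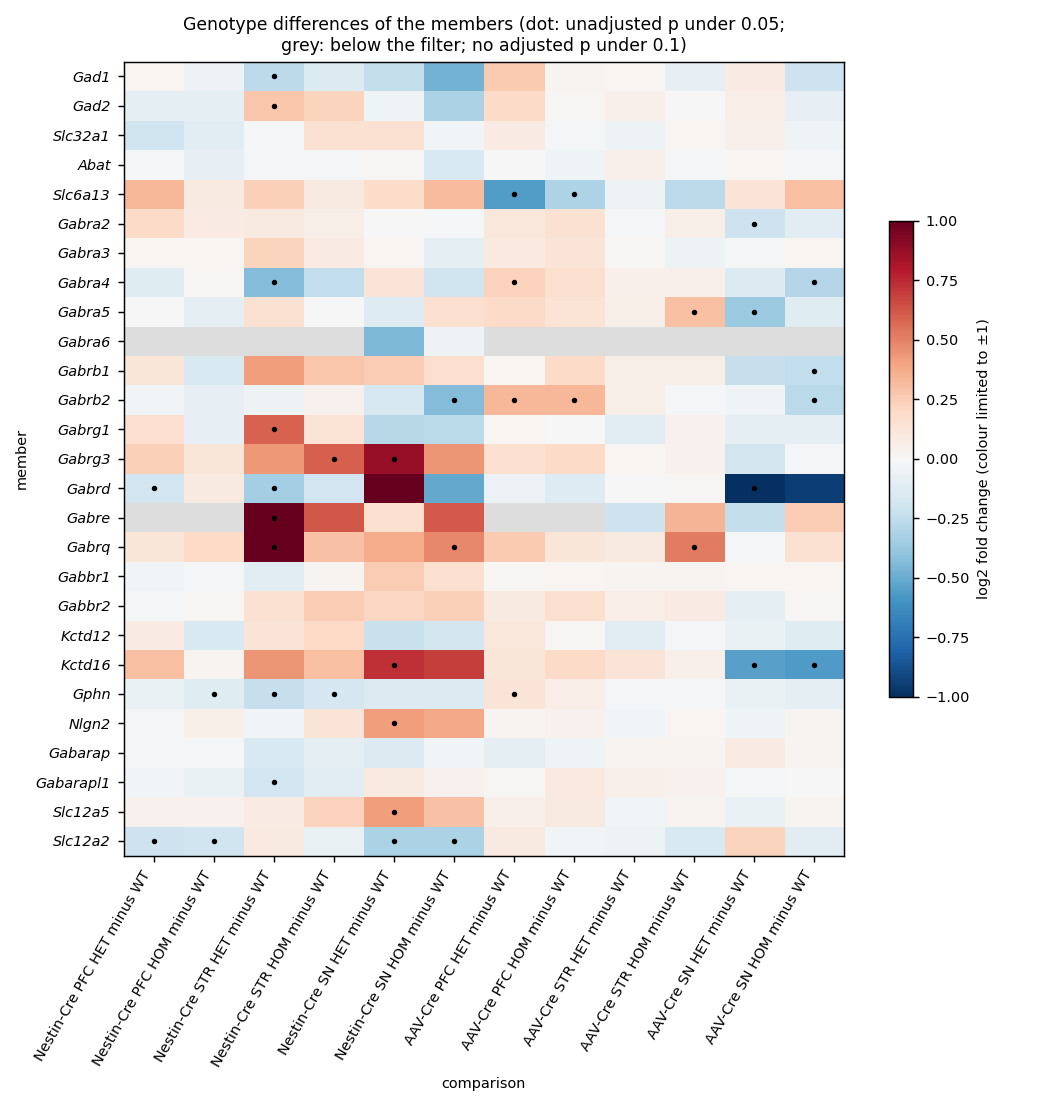
Log2 fold change (colour, limited to 1 in both directions) of the 27 members, as lines of the grid, in HET and HOM against WT of each model and region, as columns; dots mark an unadjusted p under 0.05 and grey a gene below the minimum count. No adjusted p is under 0.1, and the column of Nestin-Cre STR HET has the most dots, 9.

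Of the 39 member tests with an unadjusted p under 0.05, 9 are from Nestin-Cre STR HET, the most of any comparison, 4 of them higher and 5 lower than WT. Gabra4, the alpha subunit typical of STR, ran from 293 to 364 (median 319) cpm in WT and, for HET and HOM, 194 to 300.0 (median 226) and 204 to 349.9 (median 270.3). Its log2 fold change in HET was -0.43 (SE 0.12, adjusted p = 0.175, 0.0126 to 0.266 over the alternatives), and 7 of 7 HET libraries lie below the WT median, with 1 inside the WT range. Gad1 had 801 to 991 (median 849) cpm in WT and 608 to 874 (median 719) in HET, -0.26 (SE 0.08, adjusted p = 0.184, 0.0672 to 0.385 over the alternatives), with 6 of 7 below the WT median. Gphn was at 111 to 128 (median 118) cpm in WT and 89.2 to 114 (median 102) in HET, -0.23 (SE 0.07, adjusted p = 0.18, 0.059 to 0.35 over the alternatives), with 7 of 7 below. The other members lower in HET were Gabrd, at -0.34, and Gabarapl1, at -0.19.

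Higher in HET of the same region were Gabrq, Gabre, Gabrg1 and Gad2, of which all but Gad2 lie higher in SN than in STR of WT mice. Gabrq ran from 1.97 to 10 (median 3.65) cpm in WT and, for HET and HOM, 3.89 to 24.6 (median 9.35) and 1.58 to 9.48 (median 5.98), with 1.47 (SE 0.47, adjusted p = 0.184, 2.38e-09 to 0.266 over the alternatives) in HET and 7 of 7 above the WT median. Gabre had 0.255 to 0.964 (median 0.457) cpm in WT and 0.309 to 2.78 (median 1.55) in HET, 1.71 (SE 0.48, adjusted p = 0.175, 0.000201 to 0.266 over the alternatives), with 6 of 7 above. The groups overlap for both genes. Gabrg1 stood at 27.1 to 67.4 (median 37.8) cpm in WT and 47.5 to 90.2 (median 54.2) in HET, 0.59 (SE 0.20, adjusted p = 0.192, 0.000177 to 0.267 over the alternatives), and 7 of 7 HET libraries lie above the WT median. Gad2 had 0.28 (SE 0.11, adjusted p = 0.231) and 7 of 7 above.

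Striatal markers were summed beside these values. Their sum was 11190 to 14130 cpm (median 12130) in WT and, for HET and HOM, 6817 to 12400 cpm (median 8604) and 7543 to 12630 cpm (median 11230), with 10 of 10 detected and Penk the most abundant in all 3 groups. The HET library with the highest sum, 12400 cpm, also holds the highest Gabra4 of its group (300.0 cpm) and the lowest Gabrq and Gabre (3.89 and 0.309 cpm). The 1 with the lowest sum, 6817 cpm, holds the highest Gabrq and Gabre (24.6 and 2.78 cpm), but its Gabra4, 226.5 cpm, is not the lowest. The lowest Gabra4, 193.9 and 194.3 cpm, is in the HET libraries with sums of 7543 and 7410 cpm. GABA interneuron markers, 8 of 8 detected and led by Sst, summed to 518 to 656 cpm (median 623) in WT and 423 to 594 cpm (median 519) in HET. Serotonin, noradrenaline and hypothalamic markers, of which 3 of 11 were detected with Hdc the most abundant, summed to 4.82 to 9.53 cpm (median 6.24) in WT and 5.68 to 21.8 cpm (median 11.5) in HET. Cerebellar granule cell markers, with 3 of 7 detected and led by Zic1, summed to 107 and 82.5 cpm in the 2 HET libraries with the highest Gabrq (24.6 and 22.8 cpm), and to 20.2 to 31.6 in the other 5. Gabra6, the member typical of these cells, was not higher there, at 0.0647 and 0.611 cpm against 0.0449 to 0.803 in the other 5. Oligodendrocyte precursor markers, 5 of 5 detected and led by Gpr17, summed to 156 to 212 cpm (median 187) in WT and, for HET and HOM, 202 to 246 cpm (median 226) and 154 to 232 cpm (median 183) beside the values of Gabrg1. Oligodendrocyte markers summed to 6243 to 12740 cpm in WT and 5755 to 10240 in HET. Microglia markers summed to 340 to 437 cpm in WT and 284 to 395 in HET. For endothelium and mural cells the sums were 140.5 to 242 and 143 to 290 cpm. The part of these markers in the members' differences was not tested. Without the HET library high in choroid plexus markers the fold changes were -0.39 for Gabra4, -0.22 for Gad1, -0.20 for Gphn, 1.57 for Gabrq, 1.62 for Gabre and 0.64 for Gabrg1, about as large as with it.

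**Figure D3:**
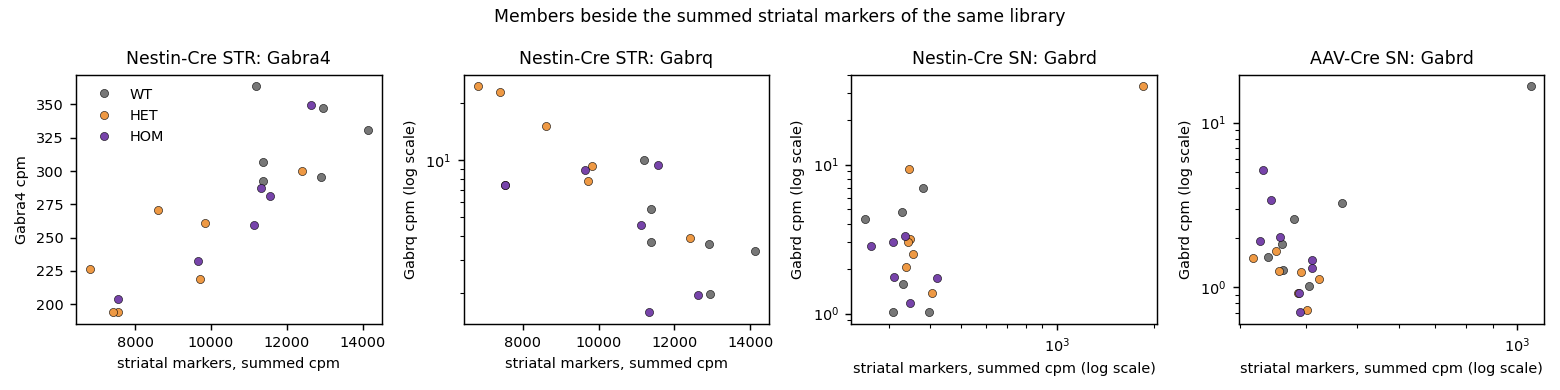
Level in cpm of Gabra4 and Gabrq in Nestin-Cre STR and of Gabrd in SN of both models (vertical axes, log scale except for Gabra4) against the summed level in cpm of 10 striatal markers in the same library (log scale for SN), with WT in grey, HET in orange and HOM in purple. In STR most HET libraries lie left of the WT libraries, and in SN 1 library of each model lies far to the right with the highest Gabrd.

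In HOM of Nestin-Cre STR the member with the lowest p was Gphn, at 95.6 to 116 (median 105) cpm, with -0.17 (SE 0.07, adjusted p = 0.784, 0.686 to 0.969 over the alternatives) and 6 of 6 libraries below the WT median. Gabra4, Gabrq and Gabre had -0.25, 0.29 and 0.62 there, beside a median striatal marker sum that lies between those of WT and HET. In STR of AAV-Cre mice, the injected region, the striatal sums were 7938 to 10860 cpm (median 9499) in WT and, for HET and HOM, 8284 to 10460 cpm (median 9774) and 8931 to 10410 cpm (median 9756). Abat had the lowest p in HET, at 631 to 737 (median 691) cpm in WT and 678 to 741 (median 711) in HET, 0.05 (SE 0.03, adjusted p = 1, 1 to 1 over the alternatives), with 6 of 7 above the WT median. Gabra5 had it in HOM, at 19.6 to 26.7 (median 25) cpm in WT and 22.8 to 39.5 (median 26.9) in HOM, 0.30 (SE 0.10, adjusted p = 1, 0.151 to 1 over the alternatives), with 6 of 7 above. The groups overlap in each case.

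Slc12a2, the chloride importer, was the member with the lowest p in 3 Nestin-Cre comparisons, each time lower than in WT. In PFC it ran from 87.1 to 105 (median 94.5) cpm in WT and 73.4 to 90.9 (median 80.8) in HET, and the 4 HOM libraries had 72.5, 80.1, 81.6 and 92.1 cpm. The log2 fold change was -0.21 (SE 0.07, adjusted p = 0.282, 0.142 to 1 over the alternatives) in HET, with 6 of 6 below the WT median, and -0.20 (SE 0.08, adjusted p = 0.329, 0.232 to 1 over the alternatives) in HOM, with 4 of 4 below. In SN the values were 210.0 to 351 (median 275) cpm in WT and, for HET and HOM, 202 to 253 (median 216) and 189 to 250.5 (median 224), with -0.32 (SE 0.11, adjusted p = 0.518) in HET and -0.32 (SE 0.11, adjusted p = 0.892, 0.143 to 0.908 over the alternatives) in HOM. All 7 HET and all 6 HOM libraries there lie below the WT median, although the ranges overlap. Without the SN libraries high in meningeal markers the HOM value was -0.48. Beside this, summed oligodendrocyte markers, 8 of 8 detected and led by Mbp, had medians of 5225, 4139 and 3796 cpm in WT, HET and HOM of PFC, and 27180, 22410 and 19910 cpm in SN. Striatal markers in PFC, with the medians given above, also had lower medians in both mutant groups. The part of either list was not tested.

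Slc12a5, the chloride exporter, was the member with the lowest p in Nestin-Cre SN HET, in the other direction. It had 311 to 446 (median 366) cpm in WT and, for HET and HOM, 379 to 639.5 (median 469.9) and 329 to 657 (median 412), with 0.42 (SE 0.13, adjusted p = 0.518, 0.103 to 0.587 over the alternatives) in HET. All 7 HET libraries lie above the WT median, and the ranges overlap. The HET libraries of mice M4577, M4606 and M4628 hold the highest Slc12a5, at 527, 542 and 639.5 cpm, and the other HET libraries hold 379 to 469.9. Nlgn2 splits the same libraries, at 221, 229 and 223 cpm against 105 to 159 in the other HET and 113 to 150 in the WT libraries. The HOM libraries of M4580 and M4627 also stand high, at 504 and 657 cpm of Slc12a5. What sets these libraries apart was not tested. The medians of summed oligodendrocyte markers given above are lower in HET than in WT. Microglia markers summed to 291 to 420 cpm in WT and 240 to 315 in HET. The part of either list was not tested. Gabrd in the same comparison depends on 1 library. It ran from 1.02 to 6.94 (median 2.95) cpm in WT and 1.38 to 33.7 (median 3.03) in HET, 1.25 (SE 0.67, adjusted p = 0.518, 0.00105 to 0.927 over the alternatives), with 4 of 7 above the WT median, and 33.7 cpm were found in the HET library whose striatal markers sum to 1851 cpm. Without that library the log2 fold change was 0.12, and without the SN libraries high in meningeal markers it was 2.04.

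In AAV-Cre SN 1 library also bears on Gabrd, here from the WT group. WT libraries had 1.02 to 16.7 (median 1.82) cpm, HET libraries 0.733 to 1.67 (median 1.24) and HOM libraries 0.707 to 5.17 (median 1.69). Of these 7 of 7 HET and 4 of 8 HOM libraries lie below the WT median, and the log2 fold changes were -1.73 (SE 0.56, adjusted p = 0.946, 3.48e-08 to 0.999 over the alternatives) in HET and -0.94 (SE 0.52, adjusted p = 0.703, 0.0223 to 0.96 over the alternatives) in HOM. Without the 1 WT library high in striatal markers, which holds 16.7 cpm of Gabrd, they were -0.65 in HET, smaller but of the same sign, and 0.14 in HOM. Gabra4 had the lowest p in HOM of this region, at 34.8 to 55.3 (median 44.8) cpm in WT and 30.2 to 41.2 (median 37.8) in HOM, -0.29 (SE 0.08, adjusted p = 0.563, 0.0774 to 0.727 over the alternatives), with 8 of 8 below the WT median. Gabrb2 stood at 315 to 417 (median 359) cpm in WT and, for HET and HOM, 282 to 396 (median 340.5) and 245 to 358 (median 283), -0.27 (SE 0.09, adjusted p = 0.563, 0.0369 to 0.72 over the alternatives), and 8 of 8 HOM libraries lie below the WT median. Kctd16 had 2.01 to 6.77 (median 4.3) cpm in WT and 2.42 to 3.62 (median 2.92) in HOM, -0.57 (SE 0.22, adjusted p = 0.615), again with 8 of 8 below. Ranges of WT and HOM overlap for all 3 genes, and without the WT library high in striatal markers Gabra4, Gabrb2 and Kctd16 had -0.25, -0.30 and -0.43. That library holds the highest Kctd16 of its group, 6.77 cpm, where the other 6 hold 2.01 to 5.46. Midbrain and thalamic GABA neuron markers, a list that is higher in STR (69.2 to 96.4 cpm in AAV-Cre WT), summed to 38.8 to 66.3 cpm in WT and 42.8 to 62.6 in HOM. Serotonin, noradrenaline and hypothalamic markers summed to 20.4 to 104 cpm in WT and 57.0 to 187 in HOM. The part of either list was not tested.

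In AAV-Cre PFC Gabrb2 lies the other way. It ran from 197 to 294 (median 249) cpm in WT and, for HET and HOM, 239 to 399 (median 290.1) and 240.0 to 401 (median 329.6), with 0.33 (SE 0.12, adjusted p = 0.34, 0.00816 to 0.56 over the alternatives) in HET, where 6 of 7 lie above the WT median, and 0.33 (SE 0.12, adjusted p = 0.249, 0.00272 to 0.312 over the alternatives) in HOM, where 6 of 8 do. The groups overlap. Slc6a13 had the lowest p in HET of this region, at 12.7 to 28.1 (median 17.3) cpm in WT and, for HET and HOM, 8.15 to 16 (median 14.2) and 12.9 to 18.6 (median 15.3), -0.56 (SE 0.16, adjusted p = 0.34, 0.000347 to 0.557 over the alternatives), with 7 of 7 HET libraries below the WT median. The summed meningeal markers, 9 of 9 detected and led by Igf2, were 129.5 to 191 cpm (median 149) in WT and, for HET and HOM, 113 to 147 cpm (median 134) and 124 to 160.3 cpm (median 139.7), and their part was not tested. Sums of 5 further lists, with all their genes detected, have lower medians in HET and HOM than in WT, and their part was not tested either. Astrocyte markers, 7 genes led by Slc1a2, summed to 4931 to 5551 cpm (median 5306) in WT and, for HET and HOM, 4437 to 5232 cpm (median 4601) and 4257 to 5426 cpm (median 4645). Those of endothelium and mural cells, 7 genes led by Rgs5, summed to 239.9 to 330.1 cpm (median 286), 222 to 281 cpm (median 233) and 231 to 281 cpm (median 248). For the 8 genes of oligodendrocytes, led by Mbp, the 5 of their precursors, led by Pdgfra, and the 6 of microglia, led by Csf1r, the medians in WT, HET and HOM were 4806, 4206 and 4670 cpm, 232, 197 and 193 cpm and 366, 311 and 309 cpm. Cortical excitatory markers, 8 of 8 detected and led by Slc17a7, summed to 1766 to 2206 cpm (median 1907) in WT and, for HET and HOM, 1856 to 2341 cpm (median 2071) and 1871 to 2413 cpm (median 2168) beside the values of Gabrb2. Striatal markers had medians of 1075, 1306 and 1087 cpm in WT, HET and HOM, and the part of both lists was not tested. DESeq2 gave Slc6a13 no adjusted p in HET, so its range leaves that tool out.

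Whether a genotype effect differs between regions was tested as an interaction within each model, on 15403 genes for Nestin-Cre and 15442 for AAV-Cre mice. Of 318 member tests 1 was called by the quasi-likelihood test and 26 (8.18%) by the likelihood ratio test, which called 1.45% of gene tests, and 43 (13.5%) had an unadjusted p under 0.05, beside 6.02% of all gene tests. The call is Gabrb2 in HOM of AAV-Cre mice, SN minus PFC: a log2 difference between the effects of -0.61 (SE 0.14, adjusted p = 0.0959), from effects of -0.27 in SN and 0.33 in PFC in the separate fits. In the paired fit, with mouse as a replicate block, the count in this interaction was 3: Gabrb2 at -0.61 (SE 0.13, adjusted p = 0.0376), Gabra4 at -0.45 (SE 0.11, adjusted p = 0.0376) and Kctd16 at -0.75 (SE 0.24, adjusted p = 0.09). Without the block Gabra4 had -0.46 (SE 0.13, adjusted p = 0.11) and Kctd16 -0.77 (SE 0.24, adjusted p = 0.125). Both fits hold the SN WT library high in striatal markers, which has the highest Kctd16 of its group, and the interaction without it was not tested. Of all genes 0.188% were called in this interaction without the block and 4.48% with it. In the other AAV-Cre interactions 0 members were called, where the share of genes was 0.0194% for HET, SN minus PFC, 0.00648% for HET and 0.00648% for HOM, SN minus STR, and 0 and 0% for STR minus PFC. Nestin-Cre interactions gave 0 members each, with 0.013% of genes for HET, SN minus PFC, 0.0649% for HET, SN minus STR, and 0% for the other 4. The lowest member p there was that of Gabrg1 in HET, SN minus STR, at -0.85 (SE 0.24, adjusted p = 0.127).

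Differences of an effect between the models were tested within each region, and they hold the change of age, Cre source and injection together. Of 156 member tests 0 were called by the quasi-likelihood test and 13 (8.33%) by the likelihood ratio test, which called 3.48% of gene tests, and 26 (16.7%) had an unadjusted p under 0.05, beside 11.8% of gene tests. Called genes made up 0.678 and 3.54% in PFC for HET and HOM, 0.00673 and 0.0202% in STR, and 0 and 0% in SN. The lowest adjusted p was that of Slc6a13 in PFC HET, where the effect in Nestin-Cre minus that in AAV-Cre mice was 0.90 (SE 0.25, adjusted p = 0.11). It was 0.95 without mouse M4575, with an adjusted p of 0.0646, which passes. The effects behind it were 0.33 (Nestin-Cre) and -0.56 (AAV-Cre). Summed meningeal markers in Nestin-Cre PFC were 93.2 to 247 cpm in WT and 152 to 279 in HET. In AAV-Cre PFC they were 129.5 to 191 cpm in WT and 113 to 147 in HET. Their part was not tested. Gabra4 in STR HET differed between the models by -0.49 (SE 0.13, adjusted p = 0.198), from effects of -0.43 and 0.05.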

How the data were processed

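The table deposited by the authors holds 1 count per gene and library for 24412 genes (6 rows have no symbol and 0 value columns were left unused). By the submitters' processing notes, stranded poly(A) libraries were read as 75-base single ends, converted with bcl2fastq 2.20.0.422, aligned to mm10 with STAR 2.5.2b and counted in exons with featureCounts 1.5.1, and the authors' counts carry no further normalization. Replicates of a group differ by more than counting noise (the lowest chi-square per degree of freedom of any pair was 4.49), so more than depth limits the precision. Mouse, dissection and library preparation cannot be told apart in this.

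The members and all lists were chosen with earlier results of these data known. Analyses ran in R 4.3.3 with edgeR 4.0.16 (limma 3.58.1): genes reaching 1 cpm in 3 or more libraries of a fit, TMM scaling, estimateDisp, glmQLFit with the trended dispersion in legacy mode, glmQLFTest, two-sided, Benjamini-Hochberg over all genes of the fit, with SE as the absolute log2 value divided by the root of F. For genotypes there was a separate fit per model and region, the WT libraries of a model for regions, all libraries of a model for region interactions and all of a region for model interactions. Alternatives were edgeR's likelihood ratio test, DESeq2 1.42.0, DESeq2 size factors in edgeR, edgeR without legacy mode, no filter, only the 2 genotypes compared, fits with all regions or all genotypes of a model, the stricter limit of 0.05 on adjusted p, at least 4-fold, without mouse M4575, without each HOM mouse of Nestin-Cre PFC in turn, and mouse as a replicate block (for interactions without M4575). After seeing the data, fits without libraries whose choroid plexus, striatal (SN) or meningeal (SN) markers sum to at least 1000 cpm were added. The steps were tested on simulated data.

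Mouse numbers in the labels name the same animal across regions, so they pair the samples. As a check, deviations from group means correlate within a mouse with a median r of 0.246 (PFC and STR), 0.180 (PFC and SN) and 0.230 (STR and SN) for Nestin-Cre mice, and of 0.227, 0.167 and 0.189 for AAV-Cre mice, against -0.0149 to -0.00228 between different mice.

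Named with full values are members called in a genotype comparison, the member with the lowest unadjusted p in each, the 3 called members with the largest fold in each direction of each region comparison, and Gdnf in every group. Named after their values were seen are Gad1, Gphn, Gabre, Gabrq and Gabrg1 in Nestin-Cre STR HET, Gabrd in Nestin-Cre SN HET and AAV-Cre SN HOM, and Gabrb2 in AAV-Cre PFC HET and SN HOM. Also given, outside the rule above, are Kctd16 in AAV-Cre SN HOM and Slc12a2 in Nestin-Cre SN HET. The 17 marker lists and the list of 51 other pathway genes were written by hand, and gene lengths and positions are those of exons in an mm10 annotation. Exons of Gabra5 share 148 bases with Gm9962 and those of Gabarapl1 47 with 1700101I11Rik on the other strand, and Kctd12 shares 84 with Mir5130 on its own. The strand setting of featureCounts is not given, so counts of Gabra5 and Gabarapl1 may include reads of the other gene. Reads were not used here.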

Additional observations from a re-analysis of the deposited data

Results flagged for a closer look

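Values of 1 library that lie far outside the rest of their group were searched for by Dixon's test at the 95% level, which divides the gap to the nearest other library by the range of the group. Searched were 84 combinations of a named member and a group and 54 of a tissue marker list and a group. If values were normally distributed, about 1 in 20 groups would hold such a value by chance alone. The levels were taken in cpm without logs, so this rate need not hold here. The 3 marker lists searched, of 17, are those used above to leave libraries out. The test found 8 values of members and 12 of marker sums, all 20 of them above the rest, and no cause was tested.

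Among the members, Gabbr2 was 88.9 cpm in Nestin-Cre STR WT mouse M4609 (the others 34.0 to 53.0), and Gabra6 was 8.08 cpm in M4394 of the same group (the others 0 to 1.39). In Nestin-Cre PFC WT, M4575, the mouse labelled HOM in its other regions, had 0.763 cpm of Gabra6 (the others 0 to 0.298) and 0.763 cpm of Gabre (0.0596 to 0.254). Gabrd was 16.7 cpm in AAV-Cre SN WT mouse M3587 (1.02 to 3.25) and 33.7 cpm in Nestin-Cre SN HET mouse M4566 (1.38 to 9.37). Gabrq reached 44.0 cpm in AAV-Cre SN WT mouse M3677 (20.3 to 30.4), and Slc6a13 36.9 cpm in AAV-Cre SN WT mouse M3578 (2.97 to 15.3).

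The summed striatal markers were 1060 cpm in AAV-Cre SN WT mouse M3587 (the others 339 to 467) and 1851 in Nestin-Cre SN HET mouse M4566 (338 to 407). Choroid plexus markers summed to 19050 cpm in Nestin-Cre STR HET mouse M4566 (40.1 to 186), 20300 in AAV-Cre SN HET mouse M3676 (29.9 to 229.7) and 1278 in AAV-Cre PFC HET of the same mouse (8.05 to 22.1). Smaller sums of this kind were 49.6 cpm in Nestin-Cre PFC HET mouse M4606 (7.79 to 12.9), 56.0 in Nestin-Cre PFC WT mouse M4394 (7.13 to 11.7) and 293.5 in Nestin-Cre SN HET mouse M4579 (25.5 to 128). Meningeal markers summed to 461 cpm in AAV-Cre SN WT mouse M3578 (68.6 to 222.5), 411 in AAV-Cre STR WT mouse M3585 (49.9 to 132), 627 in Nestin-Cre STR HET mouse M4566 (68.0 to 120.0) and 164 in Nestin-Cre STR HOM mouse M4627 (59.9 to 98.3). One difference between groups is listed with these because its interaction passed the test, Gabrb2 in HOM of AAV-Cre mice for SN minus PFC, at -0.61.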

How the results depend on the processing

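Of 286 counts of called members under other settings 230 were equal to those reported and 56 differed. Of these 56, 36 differed by more than 1.5-fold or from or to 0 and are given below, and the other 20, all of region comparisons, by 1 or 2 members. Of 1797 results for 1 member 1703 kept sign and call, 44 lost a call (37 of them only because 4-fold was asked), 35 gained one and 15 changed sign, most of these from values near 0. A kept call does not mean a kept size: without the SN library high in striatal markers Gabrd went from 1.25 to 0.12 in Nestin-Cre SN HET and from -1.73 to -0.65 in AAV-Cre SN HET, with no call before or after. The cause was not tested for any of them. Bulk libraries of groups of 4 to 8 mice, the neighbouring tissue in some of them and the shared WT libraries limit what the genotype comparisons can show: at these sizes 0 calls do not mean that levels are equal. Models differ in several ways together.

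Shares in brackets are those of all genes called in the same way. With edgeR's likelihood ratio test, members called against WT were 1 in Nestin-Cre PFC HET (2.88%), 5 in STR HET (8.57%) and 1 in SN HET (2.23%), and 3 in AAV-Cre PFC HET (1.7%), 1 in PFC HOM (2.93%), 2 in SN HET (2.19%) and 3 in SN HOM (1.47%), in place of 0 in each. It called, for region interactions, 2 in Nestin-Cre HET for STR minus PFC (2.02%), 1 for SN minus PFC (1.08%) and 5 for SN minus STR (3.95%), and 1 in HOM for SN minus STR (0.403%). In AAV-Cre HET it called 7 and 3 (3.59 and 1.83%) and in HOM 5 and 2 (2.38 and 0.958%) for SN minus PFC and SN minus STR. Model interactions had 3 in PFC HET (3.24%), 1 in PFC HOM (4.2%), 4 in STR HET (6.11%) and 5 in SN HET (4.56%).

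DESeq2 called 6 in Nestin-Cre STR HET (3.7%) and 1 in AAV-Cre PFC HOM (1.26%). For regions it called 5 higher and 8 lower in Nestin-Cre SN minus PFC (1790 and 1827 genes), and 2 and 3 lower in AAV-Cre SN minus PFC and SN minus STR (1345 and 1363 genes), where Gabrd had no adjusted p. With all regions of a model in the fit it was 6 members beside 1082 genes in Nestin-Cre STR HET, 1 beside 460 in AAV-Cre PFC HOM and 1 beside 22 in AAV-Cre SN HET. Without mouse M4575 the model interaction in PFC HET had 1 beside 208 genes.

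With at least 4-fold, region calls were 1 higher (280 genes) in Nestin-Cre STR minus PFC, 2 higher and 2 lower (434 and 623 genes) in SN minus PFC and 2 and 3 (599 and 619) in SN minus STR. AAV-Cre mice had 0 and 1 (250 and 342 genes) in STR minus PFC, 1 lower (460) in SN minus PFC, and 1 and 2 (402 and 539) in SN minus STR.

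Under the pairing with mouse as a replicate block, the AAV-Cre HOM interaction of SN minus PFC had 3 members (4.48%) in place of 1 (0.188%), Gabra3 fell below 2-fold and Gabra6 was called in Nestin-Cre SN minus PFC, and Gabrg3 in Nestin-Cre STR minus PFC was -0.02 in place of 0.10. It changed no other call.

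Signs changed with DESeq2 size factors and with DESeq2 in Nestin-Cre mice for Abat (0.02 and 0.02) and Gabrb1 (0.02 and 0.02) in SN minus STR, and Gabrb2 (0.01 and 0.01) in SN minus PFC. Without SN libraries high in meningeal markers, Nestin-Cre Abat was 0.14 in SN minus STR, and Gabrb2 0.17, Gad1 0.23, Gphn 0.01 and Slc6a13 -0.08 in SN minus PFC. Without libraries high in choroid plexus markers, Gabarapl1 was 0.01 and Kctd16 0.03 in AAV-Cre STR minus PFC. Without the SN library high in striatal markers, Gabrd was 0.14 in AAV-Cre SN HOM.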
